A study of Rattus norvegicus with 20 samples.

Results

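The comparison described here sets cortical neurons that had sprouted an axon after stroke against neurons of the same rat that had not, with both days of the study pooled. It uses all 20 of the 20 arrays of the series, which come from 10 rats aged 2 months. In each rat the tracer cholera toxin B (CTb) coupled to Alexa 488 was injected into the cortex beside the infarct, and CTb coupled to Alexa 647 was injected at the same place 7 days later in 5 rats and 21 days later in the other 5, a separate cohort. About 300 neurons of each type were taken by laser capture microdissection 7 days after the second tracer, and their RNA went through 2 rounds of T7 amplification. Both cell types of a rat were hybridised to the same array, one in Cy5 and the other in Cy3, and again on a second array with the dyes exchanged. Every array therefore gives a ratio of sprouting over non-sprouting neurons within 1 stroke animal, and no uninjured rat enters it. Ratios are log2 values throughout: positive means a higher signal in sprouting neurons. The 2 arrays of a rat were averaged into 1 value, and the mean of the day 7 and day 21 means over the 10 rats was tested against 0.

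After a cortical stroke, surviving neurons near the infarct can grow new axon branches and form new connections within the cortex, a process called axonal sprouting. Retrograde tracers show which neurons send an axon to a site, since the axon end takes the tracer up and carries it to the cell body. CTb enters cells by binding the ganglioside GM1. An axon already present at the first injection can take up both conjugates, whereas one that arrived later meets only the second. The question the pooled comparison addresses is which genes set sprouting apart from non-sprouting neurons on average over both times after stroke.

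The median raw signal of an array was between 98.75 and 344.7 in Cy5 and between 133.9 and 281.4 in Cy3, above median local backgrounds of 40 to 45 and 29 to 45, and 40.3% to 94.6% of probes were well above background in a channel. After the dyes were turned the same way, the 2 arrays of a rat correlated at 0.335 to 0.733 over genes in 9 of the 10 rats. In day 21 replicate 4 that correlation was -0.358, so its 2 arrays do not settle a direction between them, and its averaged ratios spread over genes with an SD of only 0.0651 against 0.155 to 0.239 in the others. Values below include that rat unless stated. Of the 151 genes chosen for description 139 had an unadjusted p under 0.05 over 10 rats, 130 of these also had one over the other 9, and the mean of 1, Lingo1, changed sign. Most of the 151 were chosen by their p over 10 rats, so these counts are no separate test. Ratios of different rats correlated at -0.132 to 0.443, with a median of 0.046. Of 13 general neuron markers on the array, 11 were well above background in all 40 channels. Markers of other cells were detected as well: 15 of 19 for astrocytes, 12 of 20 for oligodendrocytes, 13 of 20 for microglia and macrophages and 13 of 24 for endothelial and mural cells were well above background in every channel, and no marker of any of these lists was below background in all of them.

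Measured differences between sprouting and non-sprouting neurons were small over the pooled rats, and no single gene passed the test. The median size of the log2 ratio over 33090 genes was 0.0341, beside a median standard error of 0.0368. Sizes here and below hold for signals with an offset of 50 added to both channels. Such an offset draws ratios towards 0, most of all for dim probes, and by how much was not tested. By limma's moderated test with Benjamini-Hochberg adjustment 0 genes, or 0%, reached an adjusted p under 0.05, and the smallest adjusted p was 0.1656 over all genes and 0.3979 among the 14440 genes with a current symbol. At an unadjusted p under 0.05 there were 3641 genes, or 11% of those tested, of which 1856 (5.61%) were higher and 1785 (5.39%) lower in sprouting neurons. Without day 21 replicate 4 the counts were 0 adjusted and 3471 unadjusted, and with 1 or the other of its arrays turned they were 1 and 0 adjusted and 3582 and 3340 unadjusted. Only 4 genes lay beyond 1.5-fold and 0 beyond 2-fold. The 2 of those 4 with a symbol were Vip, which encodes vasoactive intestinal peptide, at -0.60 ± 0.18 (SE, n = 10), and Ptpn11, a protein tyrosine phosphatase of growth factor signalling, at 0.61 ± 0.22. Every SE is limma's moderated one, in which the spread of a gene is drawn towards that of all genes.

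The count of passing genes differed between the fit over rats and a fit over arrays. With the 20 arrays as observations, the rat as a random block with an estimated correlation of 0.586, and a dye term, 500 genes passed at an adjusted p under 0.05 (1.51%), of which 368 were higher and 132 lower. That fit assumes the same correlation for every gene and has 17 residual degrees of freedom, against 8 over rats. Its median standard error was 0.042, against 0.0368 over rats. The fits thus differ in more than the unit of replication, and which part changed the count was not tested. In the fit over arrays the dye term itself passed for 9572 genes. Without the arrays of day 21 replicate 4 it gave 630 genes, 472 of them among the 500. All 500 had an unadjusted p under 0.05 over rats, and 69 had the same sign in all 10. Since the arrays of a rat hold the same RNA, the values over 10 rats are used below, and the verbs rose and fell are not used of any gene.

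Direction was shared by all 10 rats for 198 of the 31817 genes measured in all of them, or 0.622%, with 109 higher and 89 lower. The count rests in part on day 21 replicate 4, whose ratios were mostly close to 0: over the other 9 rats alone 362 genes (1.14%) had 1 sign. The 12 genes with a symbol and the smallest unadjusted p in each direction among the 198 are described first. All of them had an adjusted p of 0.3979 by limma, and all 24 had an unadjusted p under 0.05 without day 21 replicate 4, with means 0.969 to 1.13 times those over 10 rats. The 24 were chosen from these same values, and that rat was mostly close to 0, so this is no separate support. The choice itself depends on that rat. Made over the other 9 rats, it kept 5 of the 12 higher and 9 of the 12 lower genes, and took in Pik3r1 at 0.29 ± 0.047, Stim2 at 0.32 ± 0.044, Slc24a2 at 0.54 ± 0.10, Mrpl47 at 0.20 ± 0.031, Nup58 at 0.15 ± 0.027, Trim2 at 0.25 ± 0.048 and Vps26a at 0.18 ± 0.035 as higher and Or8b1 at -0.12 ± 0.025, Cav1 at -0.11 ± 0.025 and Nolc1 at -0.11 ± 0.027 as lower. The kept higher genes were Srp72, Plekhh2, Ugcg, Atp6v1a and Gria1.

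The 12 genes higher in sprouting neurons are given by what they do. Srp72, a protein of the signal recognition particle that brings ribosomes making secreted and membrane proteins to the endoplasmic reticulum, gave log2 ratios of 0.45, 0.30, 0.68, 0.37 and 0.30 in day 7 replicates 1 to 5 and 0.078, 0.36, 0.37, 0.0091 and 0.20 in day 21 replicates 1 to 5. All 10 values were above 0, the lowest in day 21 replicate 4. Its mean was 0.31 ± 0.047 (SE, n = 10), or 1.24-fold, with a 95% interval of 0.21 to 0.42 and an unadjusted p of 5.04e-05. The cohort means were 0.42 ± 0.16 at day 7 and 0.20 ± 0.16 at day 21 (SD, n = 5 each). Atp6v1a, the catalytic subunit of the proton pump that acidifies lysosomes, endosomes and synaptic vesicles, gave 0.75, 0.13, 0.63, 0.48 and 0.24 at day 7 and 0.18, 0.64, 0.31, 0.038 and 0.12 at day 21. Its mean was 0.35 ± 0.071, and a second probe gave 0.25. Ugcg, the glucosylceramide synthase that begins the synthesis of gangliosides, gave 0.45, 0.36, 0.43, 0.033 and 0.30 at day 7 and 0.22, 0.12, 0.49, 0.011 and 0.14 at day 21. It was lowest in day 7 replicate 4 and day 21 replicate 4, its mean was 0.26 ± 0.051, and a second probe gave 0.11. Pip4k2a, a kinase that makes phosphatidylinositol bisphosphate, had a mean of 0.26 ± 0.061 with single values from 0.03 to 0.63.

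The next of the 12 act at synapses and in signalling. Gria1, the GluA1 subunit of AMPA-type glutamate receptors, gave 0.11, 0.48, 0.61, 0.22 and 0.22 at day 7 and 0.16, 0.38, 0.41, 0.010 and 0.086 at day 21. Day 7 replicates 2 and 3 and day 21 replicates 2 and 3 were highest, and its mean was 0.27 ± 0.056 with an unadjusted p of 0.000701. Gnb2, a beta subunit of heterotrimeric G proteins, had a mean of 0.16 ± 0.035. Gsk3a, a kinase of the insulin and Wnt pathways, had 0.12 ± 0.029. Cxcr3, a chemokine receptor, had 0.079 ± 0.018, but its probe was well above background in 10 of 20 channels of each cell type. The rest were the zinc finger protein gene Zfp799 at 0.33 ± 0.077, Plekhh2 at 0.23 ± 0.042, Sbno1 at 0.14 ± 0.035 and Ttc9 at 0.13 ± 0.030. A second probe of Plekhh2 gave -0.0021, and the Ttc9 probe was well above background in 19 sprouting and 9 non-sprouting channels of 20.

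Among the 12 genes lower in sprouting neurons, all had negative ratios in every rat, as the choice required. Tm9sf2, a membrane protein of the endosomal and Golgi system, gave -0.13, -0.41, -0.22, -0.21 and -0.34 at day 7 and -0.065, -0.55, -0.34, -0.046 and -0.22 at day 21. Its mean was -0.25 ± 0.049 (SE, n = 10), with an unadjusted p of 0.000415. Npy5r, the Y5 receptor of neuropeptide Y, gave -0.094, -0.47, -0.30, -0.070 and -0.58 at day 7 and -0.065, -0.45, -0.018, -0.019 and -0.32 at day 21. Both cohorts held values close to 0 and values far below it, and the mean was -0.24 ± 0.061. Trmt9b, a gene related to tRNA methyltransferases, gave -0.14, -0.17, -0.21, -0.30 and -0.22 at day 7 and -0.083, -0.34, -0.11, -0.018 and -0.18 at day 21, with a mean of -0.18 ± 0.031. Homer2, a scaffold of the postsynaptic density, had a mean of -0.096 ± 0.022. The palmitoyltransferase gene Zdhhc23 had -0.14 ± 0.033, and Chp1, which encodes a calcineurin-like calcium-binding protein, had -0.12 ± 0.032 while its second probe gave 0.023. Dhrs4, a carbonyl reductase, had the narrowest spread: its 10 values lay between -0.11 and -0.06, with a mean of -0.083 ± 0.016. Its SD was 0.0182 at day 7 and 0.015 at day 21, so the moderation widened its SE. The others were Serpina7, the thyroxine-binding globulin gene, at -0.097 ± 0.020, Ino80d at -0.093 ± 0.023, Abhd1 at -0.083 ± 0.022, and the olfactory receptor genes Or5p6 at -0.097 ± 0.023 and Or10ag59 at -0.066 ± 0.017. The probes of the 2 olfactory receptor genes were well above background in only 8 to 14 channels of 20, and Or10ag59 was at 0.013 when arrays were centred on the median in place of loess.

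**Figure D1:**
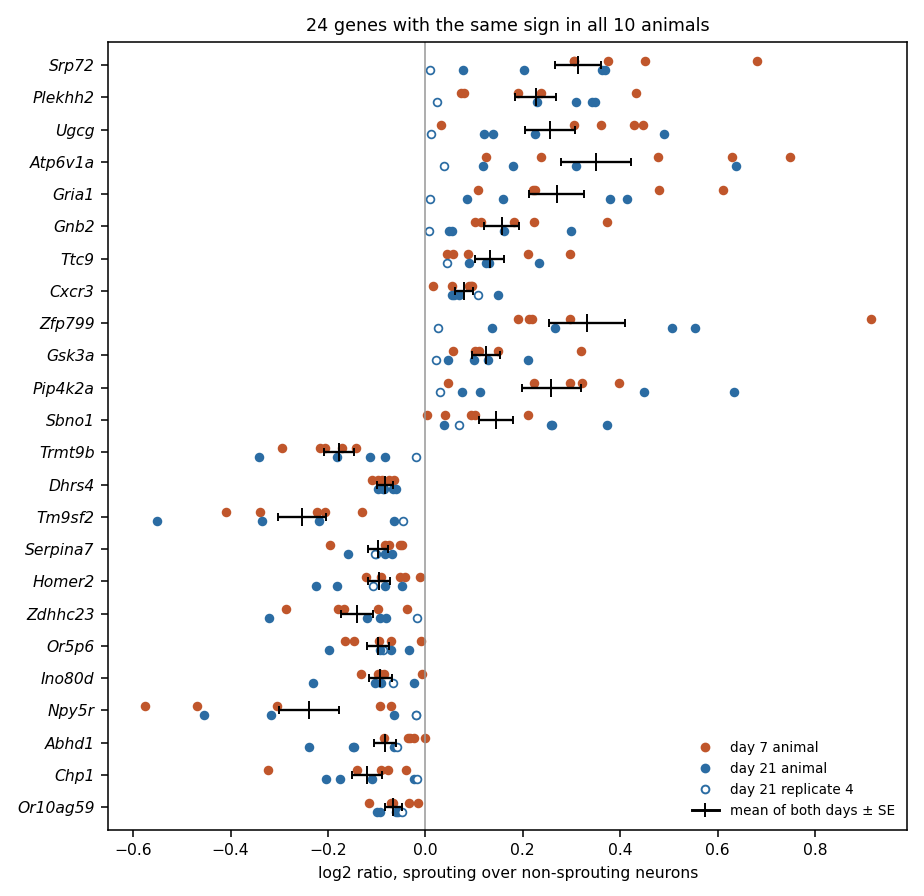
Log2 ratio of sprouting over non-sprouting neurons (horizontal axis) in each of 10 rats for the 12 higher and 12 lower genes; dots are rats, the open dot is day 21 replicate 4, and black bars are the mean of both days with its standard error. Every dot of a gene lies on 1 side of 0, which was a condition of choosing these genes, and the open dot is among those nearest 0 for Srp72, Ugcg and Gria1.

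RefSeq promoter windows of the rat build GRCr8, from 250 bases before to 50 bases after the start of transcription, matched 7 of the 12 higher and 8 of the 12 lower genes. The windows of 4 of them, picked after the matches were seen, are printed to show what windows with and without the letters searched look like; they include both of the higher genes with TGANTCA. Capitals mark TGACG, the core of the cAMP response element, TGANTCA, the AP-1 element bound by Fos and Jun proteins, GGGCGG, the GC box, and CACGTG, the E-box, each searched on both strands.
Srp72, chr14:31549925-31550224, minus strand: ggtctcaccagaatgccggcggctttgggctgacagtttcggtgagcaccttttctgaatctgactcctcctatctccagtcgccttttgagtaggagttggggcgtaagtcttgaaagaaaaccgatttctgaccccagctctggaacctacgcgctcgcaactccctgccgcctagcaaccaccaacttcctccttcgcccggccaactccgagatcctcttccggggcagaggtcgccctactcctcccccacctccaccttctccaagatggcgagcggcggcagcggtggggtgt
Atp6v1a, chr11:70067252-70067551, plus strand: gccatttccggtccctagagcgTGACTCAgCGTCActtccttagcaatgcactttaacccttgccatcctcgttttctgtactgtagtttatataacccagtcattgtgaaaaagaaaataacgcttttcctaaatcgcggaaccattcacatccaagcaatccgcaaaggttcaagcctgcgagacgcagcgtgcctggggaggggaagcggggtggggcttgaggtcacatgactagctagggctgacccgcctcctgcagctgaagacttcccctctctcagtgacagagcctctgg
Gnb2, chr12:24795529-24795828, plus strand: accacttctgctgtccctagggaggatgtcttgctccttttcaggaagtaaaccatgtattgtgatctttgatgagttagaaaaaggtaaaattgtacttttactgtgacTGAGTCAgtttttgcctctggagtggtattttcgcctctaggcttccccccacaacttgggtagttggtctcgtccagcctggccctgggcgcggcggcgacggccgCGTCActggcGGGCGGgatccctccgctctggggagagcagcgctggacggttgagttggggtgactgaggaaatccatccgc
Tm9sf2, chr15:105607958-105608257, plus strand: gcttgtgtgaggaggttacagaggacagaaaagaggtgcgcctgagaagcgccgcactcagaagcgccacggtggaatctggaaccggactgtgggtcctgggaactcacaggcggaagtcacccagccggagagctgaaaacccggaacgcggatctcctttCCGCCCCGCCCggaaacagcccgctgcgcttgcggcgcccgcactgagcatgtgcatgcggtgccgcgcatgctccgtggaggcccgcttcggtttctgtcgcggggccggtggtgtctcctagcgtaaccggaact
The windows of Atp6v1a and Gnb2 each held 1 TGACG and 1 TGANTCA, Gnb2 also held 1 GC box, that of Tm9sf2 held 2 GC boxes that share 1 base, and that of Srp72 held none of the 4. Over the 33469 windows of the table, TGACG was present in 21.2%, TGANTCA in 7.33%, GGGCGG in 33.1% and CACGTG in 6.42%. Among the 7 higher genes with a window the counts were 4, 2, 3 and 1, and among the 8 lower genes 1, 1, 3 and 1. A match is a stretch of letters only, and no binding was measured.

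Among the cell type lists, genes that mark upper cortical layers were more often lower, and genes that mark deep layers more often higher, at the unadjusted threshold. In the upper-layer list 4 of 16 measured genes were lower at an unadjusted p under 0.05 and 1 was higher, a share of 25% lower against 5.39% of all genes. In the deep-layer list 5 of 18 were higher and 1 was lower, a share of 27.8% higher against 5.61%. None passed after adjustment, and in this and every list below, higher and lower in a count mean an unadjusted p under 0.05. Lamp5, a membrane protein gene of superficial cortical neurons, gave -0.84, -0.062, -0.54, -0.41 and -1.16 at day 7 and -0.40, 0.067, -0.38, -0.024 and -0.34 at day 21. Only day 21 replicate 2 was above 0, and the mean was -0.41 ± 0.095. Lhx2, a transcription factor of upper-layer identity, gave -0.17, -0.61, -0.50, -0.66 and -0.42 at day 7 and -0.28, -0.096, 0.36, -0.027 and 0.012 at day 21, so that all 5 day 7 rats were below 0 while the day 21 rats lay on both sides. Its mean was -0.24 ± 0.062. Calb1, which encodes calbindin, had a mean of -0.32 ± 0.12 and Unc5d, a netrin receptor gene, -0.058 ± 0.022, whereas the cadherin gene Cdh13 of the same list was at 0.20 ± 0.061. Of 3 further Calb1 probes the means ran from -0.068 to 0.12.

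Bcl11b, the transcription factor also called Ctip2 that specifies subcerebral projection neurons of layer V, gave 0.59, 0.095, 0.31, 1.30 and 1.04 at day 7 and 0.00090, 0.43, 0.57, -0.013 and -0.37 at day 21. Day 7 replicates 4 and 5 were highest and day 21 replicate 5 lowest, the mean was 0.40 ± 0.12, and a second probe gave -0.028. Fezf2, which acts upstream of Bcl11b, had a mean of 0.18 ± 0.074, the layer V gene Etv1 0.15 ± 0.059, Ldb2 0.18 ± 0.064 and Tox 0.19 ± 0.064, each above 0 in 8 or 9 of 10 rats. Pcdh19, a protocadherin gene, was at -0.12 ± 0.037. The list's median was 0.099 over the mean of both days, and 0.027 to 0.12 over 5 other scalings and without day 21 replicate 4. The upper-layer median was -0.036, and -0.069 to -0.031 over the same settings. By rat the deep-layer median was 0.036, 0.0455, 0.16, 0.16 and 0.060 at day 7 and 0.059, -0.063, 0.066, -0.022 and -0.028 at day 21. It was thus above 0 in every day 7 rat and on both sides at day 21. The upper-layer median was above 0 in 4 of the 10 rats. Without day 21 replicate 4 the upper-layer counts were 3 higher and 4 lower, and the deep-layer counts were 4 and 1. In captured pools, fewer cells of a type and less RNA per cell cannot be told apart.

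**Figure D2:**
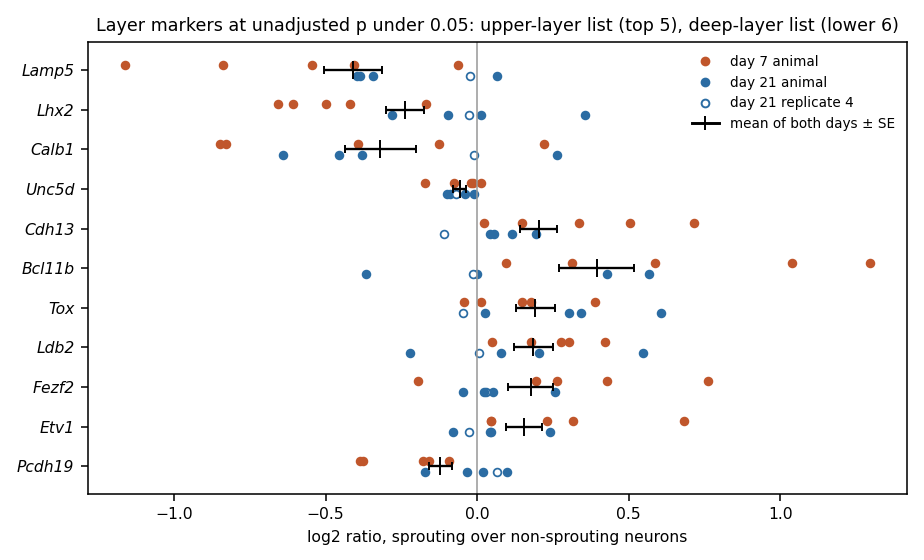
Log2 ratio by rat (horizontal axis) for the members of the upper-layer list (Lamp5 to Cdh13) and the deep-layer list (Bcl11b to Pcdh19) at an unadjusted p under 0.05; black bars are the mean of both days with its standard error. Most upper-layer members lie left of 0 and most deep-layer members right of it, and the day 7 mean is farther from 0 than the day 21 mean for Lamp5, Lhx2 and Bcl11b.

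Interneuron genes did not share a direction. Of 20 measured, 2 were higher and 2 lower at an unadjusted p under 0.05, or 10% each, beside 5.61% and 5.39% of all genes. Vip gave -0.28, -1.60, -0.52, -0.32 and -1.94 at day 7 and -0.33, -0.82, 0.47, -0.037 and -0.63 at day 21, with day 21 replicate 3 the only rat above 0. Pvalb, which encodes the calcium-binding protein parvalbumin, had a mean of 0.25 ± 0.081. Among general neuron markers Map2, a microtubule-associated protein of dendrites, was at 0.42 ± 0.15, and Syt1, the calcium sensor of synaptic vesicles, at 0.42 ± 0.16. Their list as a whole had a median of -0.0021, with 6 of 13 above 0. By day its median was 0.039 at day 7 and -0.048 at day 21.

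Markers of non-neuronal cells varied between rats. The median ratio of 20 oligodendrocyte genes was -0.30, 0.18, -0.16, 0.63 and 0.80 in day 7 replicates 1 to 5 and 0.38, -0.26, -0.29, 0.0021 and -0.095 in day 21 replicates 1 to 5. It was highest in day 7 replicates 4 and 5, where Bcl11b, Map2 and Ptpn11 were also at their highest among day 7 rats. Others were not: at day 7 Srp72 and Gria1 were highest in replicate 3 and Atp6v1a in replicate 1. These genes were picked after their values were seen, and how often genes follow the oligodendrocyte median was not tested. Mbp, the myelin basic protein gene, averaged 0.40 ± 0.24, and Olig2, a transcription factor of the lineage, -0.076 ± 0.049. No member of the oligodendrocyte list had an unadjusted p under 0.05. The median of 24 endothelial and mural genes was -0.075, with 19 of them below 0 and with Cdh5, the vascular cadherin gene, at -0.057 ± 0.019 and Emcn, an endothelial sialomucin gene, at -0.11 ± 0.047. Astrocyte genes had a median of -0.043 (Gjb6, a connexin gene, -0.19 ± 0.075; Cbs -0.096 ± 0.044), microglial genes -0.032 (Cx3cr1, the fractalkine receptor gene, -0.087 ± 0.035; Cd14 0.074 ± 0.035) and blood genes 0.0034 (Hbb-b1, a haemoglobin chain, 0.22 ± 0.14; Pf4, a platelet chemokine, 0.18 ± 0.12), with at most 1 member of each at an unadjusted p under 0.05 (3 astrocyte genes without day 21 replicate 4). At day 7 and day 21 the medians were 0.0465 and -0.15 for astrocyte genes and 0.032 and -0.062 for microglial genes. The Hbb-b1 probe was saturated in 8 of 40 channels. Their part in the results on single genes was not tested.

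**Figure D3:**
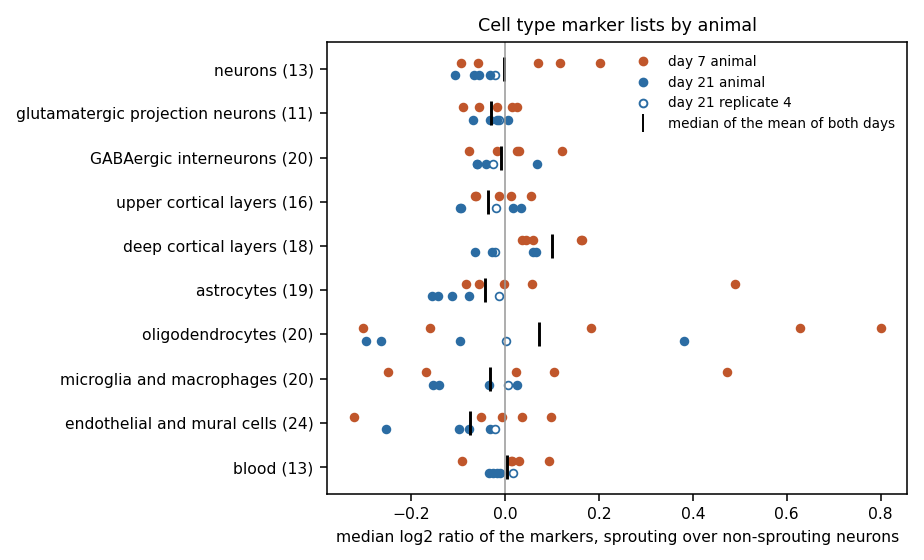
Median log2 ratio of each cell type marker list (number of measured genes in brackets) in each rat, with the black bar at the median over genes of the mean of both days. The oligodendrocyte medians run from -0.30 to 0.80 over rats, whereas those of the general neuron list stay between -0.11 and 0.20.

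Genes of transmitter release and of potassium channels were more often higher than lower at the unadjusted threshold. In the presynaptic list 11 of 73 were higher (15.1%, against 5.61% of all genes) and 3 lower. The higher ones included Amph, which encodes the endocytic protein amphiphysin, at 0.15 ± 0.032, the synaptotagmin genes Syt7 at 0.14 ± 0.036, Syt12 at 0.38 ± 0.10 and Syt11 at 0.11 ± 0.042, the complexin gene Cplx1 at 0.34 ± 0.093, the synapsin gene Syn2 at 0.30 ± 0.11 and Nsf, whose product takes SNARE complexes apart, at 0.19 ± 0.062. Nrxn3 was at 0.11 ± 0.044, Sncb at 0.055 ± 0.024 and Vamp1 at 0.12 ± 0.052. The neurexin gene Nrxn2 was at -0.15 ± 0.044, the active zone gene Bsn at -0.093 ± 0.039 and the calcium channel gene Cacna1b at -0.16 ± 0.070. Without day 21 replicate 4 they numbered 11 higher and 1 lower, and with median centring 8 higher and 3 lower. The list's median was 0.014, and -0.0029 with arrays centred on the median in place of loess. Cplx1 shows the spread behind such a mean: its values were -0.20, 0.24, 0.75, 0.50 and 0.83 at day 7 and 0.15, 0.14, 0.55, 0.044 and 0.37 at day 21, with 9 of 10 above 0.

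In the potassium channel list 8 of 74 were higher (10.8%) and 0 lower. They were the Kv2 modifier gene Kcnf1 at 0.12 ± 0.028, the BK channel gene Kcnma1 at 0.15 ± 0.039, the G protein-gated Kcnj3 at 0.30 ± 0.085, Kcnd2 of A-type current at 0.20 ± 0.070, the Kv3 genes Kcnc2 at 0.15 ± 0.064 and Kcnc1 at 0.16 ± 0.072, Kcna1 at 0.18 ± 0.077 and the leak channel gene Kcnk1 at 0.13 ± 0.055. Kcna1 was above 0 in 4 of 5 day 7 rats and below 0 in 4 of 5 day 21 rats, and a second Kcnma1 probe gave -0.070. With median centring 6 were higher and 2 lower. Sodium, calcium and HCN channel genes had 0 higher and 2 lower of 41, namely Cacna1e at -0.21 ± 0.080 and Cacna1b, and 1 higher and 1 lower without day 21 replicate 4. Among glutamate receptor and postsynaptic genes 4 of 58 were higher and 3 lower, led by Gria1 and Homer2, but with median centring 1 higher and 8 lower. Of 25 GABA and glycine receptor genes 1 was higher and 2 lower, the lower ones being Gabrq at -0.13 ± 0.043 and Gabrg3 at -0.063 ± 0.021. The shares higher and lower were 0% and 4.88% for sodium, calcium and HCN channels and 6.9% and 5.17% for postsynaptic genes. They were 4% and 8% for GABA and glycine receptors, beside 5.61% and 5.39% of all genes.

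Signalling through Ras, Rap and phosphoinositide 3-kinase, which carries growth factor signals to the cytoskeleton and to translation, had 9 of 63 members higher (14.3%, against 5.61% of all genes) and 3 lower. Rasgrp1, a calcium- and diacylglycerol-regulated activator of Ras, gave 0.37, 0.32, 0.40, 0.53 and 0.63 at day 7 and 0.21, 0.46, -0.056, 0.0018 and 0.0078 at day 21. All 5 day 7 rats were above 0.30, and the mean over both days was 0.29 ± 0.052. Pik3r1, the regulatory subunit of the kinase, gave 0.47, 0.14, 0.36, 0.53 and 0.53 at day 7 and 0.094, 0.28, 0.28, -0.065 and 0.035 at day 21, with a mean of 0.27 ± 0.047. Members with opposing roles were on the same side: the Ras GTPase activator gene Rasa1 was at 0.19 ± 0.080, the Rap GTPase activator gene Rap1gap at 0.11 ± 0.029 and the GTPase gene Rap2a at 0.17 ± 0.048. Gsk3b was at 0.21 ± 0.080. Lower members were Spry4, an inhibitor of receptor tyrosine kinase signalling, at -0.069 ± 0.022, Rasal1 at -0.044 ± 0.018 and the cap-binding protein gene Eif4e at -0.086 ± 0.037. A second Rap2a probe gave -0.056. The list's median was 0.011, and -0.011 with median centring, under which 4 members were higher and 3 lower.

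**Figure D4:**
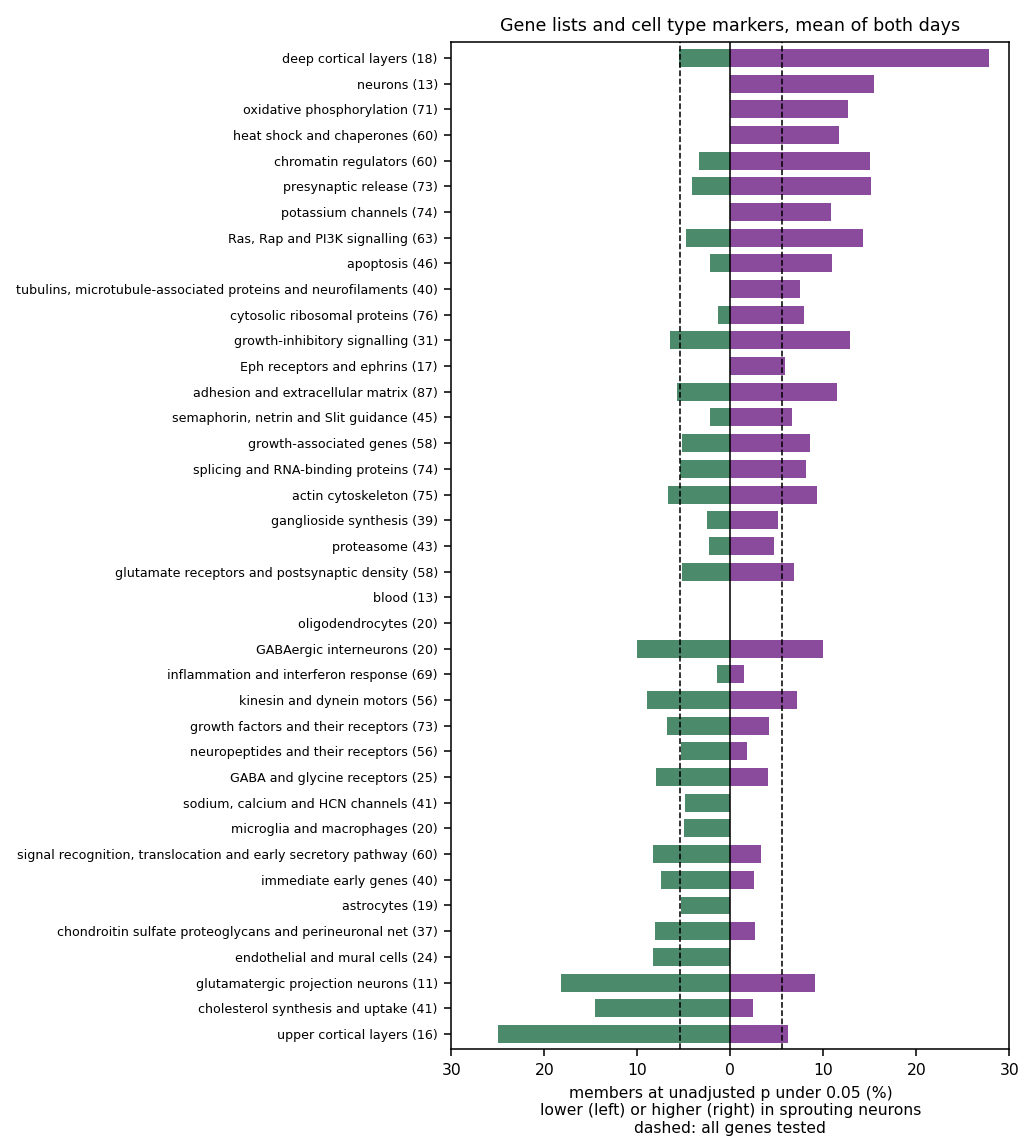
Share of the measured members of each list (number in brackets) that were higher (right, purple) or lower (left, green) in sprouting neurons at an unadjusted p under 0.05. Dashed lines stand at 5.61% and 5.39%, the shares over all 33090 genes; the deep-layer list reaches 27.8% higher and the upper-layer list 25% lower.

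Genes known from axon growth held members on both sides. Of 58 measured growth-associated genes 5 were higher and 3 lower, and their median was 0.015. Those shares, 8.62% and 5.17%, stand beside 5.61% and 5.39% of all genes. With median centring there were 3 higher and 7 lower and the median was -0.019, while without day 21 replicate 4 the counts were 6 higher and 1 lower. Basp1, a growth cone membrane protein gene, had a mean of 0.23 ± 0.059, while its second probe gave 0.017. Gap43, the growth-associated protein of growth cones, gave -0.25, -0.41, 0.022, -0.17 and -0.37 at day 7 and -0.31, 0.38, -0.37, 0.10 and 0.20 at day 21. Day 7 rats were below 0 except replicate 3, day 21 rats lay on both sides, the mean was -0.12 ± 0.075, and 7 of 40 channels were saturated for its probe. Atrx, a chromatin remodelling protein, gave -0.069, -0.012, 0.56, 1.28 and 0.52 at day 7 and 0.32, 0.60, 1.19, -0.026 and -0.45 at day 21. Its mean was 0.39 ± 0.16, only 6 of 10 rats were above 0, and 2 other probes gave 0.25 and 0.28. Bdnf, a neurotrophin, had a mean of -0.14 ± 0.12 with values from -0.80 to 0.56. Igf1, insulin-like growth factor 1, had 0.065 ± 0.11, and Lingo1, a part of the receptor complex for myelin inhibitors, was at -0.00070 ± 0.027, with a mean of either sign under other settings.

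Guidance and inhibitory signals gave scattered members. Nrp1, a receptor for class 3 semaphorins, was above 0 in all 10 rats with 0.76, 0.015, 0.22, 0.12 and 0.41 at day 7 and 0.16, 0.17, 0.031, 0.041 and 0.083 at day 21, and its mean was 0.20 ± 0.062. Robo2, a Slit receptor, was at 0.27 ± 0.10, and 3 of 45 genes of its list were higher and 1 lower. Among 17 Eph receptors and ephrins Epha4 alone had an unadjusted p under 0.05, at 0.098 ± 0.037, followed by Efna4 at 0.048 ± 0.027. In the growth-inhibitory list 4 of 31 were higher and 2 lower, against 0 higher and 1 lower with median centring. Limk2, a kinase that inactivates cofilin, gave -0.20, -0.48, -0.37, -0.42 and -0.063 at day 7 and -0.19, -0.0068, -0.14, 0.029 and 0.032 at day 21, below 0 in every day 7 rat, and its mean was -0.18 ± 0.042. Its second probe gave 0.031, and the small GTPase gene Rhoc was at -0.080 ± 0.027. Of 37 proteoglycan and perineuronal net genes 1 was higher and 3 lower, with agrin (Agrn) at -0.14 ± 0.039 and the glypican gene Gpc2 at 0.063 ± 0.018. Growth factor and receptor genes had 3 higher and 5 lower of 73, led by Tgfb3 at -0.17 ± 0.046 and Pdgfa at 0.12 ± 0.034. The shares higher and lower were 6.67% and 2.22% for the list of Robo2 and 5.88% and 0% for Eph receptors and ephrins. They were 12.9% and 6.45% for growth inhibition, 2.7% and 8.11% for proteoglycans and 4.11% and 6.85% for growth factors. All genes had 5.61% and 5.39%.

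Chromatin regulators had 9 of 60 members higher (15%, against 5.61% of all genes) and 2 lower. The higher ones included Atrx, the heterochromatin protein gene Cbx1 at 0.39 ± 0.13, the deacetylase genes Hdac4 at 0.22 ± 0.093 and Hdac1 at 0.17 ± 0.074, Rcor1, a corepressor of REST, at 0.12 ± 0.048, Chd3 at 0.12 ± 0.037, Smarcc1 at 0.11 ± 0.044 and Kmt2a at 0.055 ± 0.022. The lower ones were Tet2, which oxidises methylcytosine, at -0.070 ± 0.019, and the histone demethylase gene Kdm5b at -0.20 ± 0.059. Cbx1 gave 0.22, 0.18, 1.45, -0.039 and 0.26 at day 21, where the high value is that of replicate 3. Tet2 was at 0.036 with median centring, and the 2 other Kdm5b probes gave 0.017 and 0.19. The list's median was 0.016, and 0.0066 to 0.035 over the other scalings and without day 21 replicate 4. By day it was 0.028 at day 7 and -0.010 at day 21. Immediate early genes, which neuronal activity induces within minutes, had 1 higher and 3 lower of 40. Those shares, 2.5% and 7.5%, stand beside 5.61% and 5.39% of all genes. Dusp5, a phosphatase of ERK, was at -0.15 ± 0.057 and the transcription factor gene Maff at -0.057 ± 0.023. Without day 21 replicate 4 the counts were 4 higher and 2 lower.

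Energy metabolism and translation showed many small positive ratios under loess. Of all genes, 15544 of 33090 were above 0. In the oxidative phosphorylation list 53 of 71 genes were above 0, 9 were higher at an unadjusted p under 0.05 (12.7%, against 5.61% of all genes) and 0 lower. They were the complex I genes Ndufs5 at 0.14 ± 0.041, Ndufb5 at 0.095 ± 0.029 and Ndufa11 at 0.11 ± 0.051, Sdhb of complex II at 0.10 ± 0.041, Uqcrh at 0.13 ± 0.045 and Uqcrc1 at 0.12 ± 0.046 of complex III, Cox5a at 0.11 ± 0.038 and Cox6b1 at 0.060 ± 0.022 of complex IV and Atp5f1c of the ATP synthase at 0.15 ± 0.047. Their median of 0.037 became -0.078 with median centring, under which 0 were higher and 1 lower. The median also changed sign for the cytosolic ribosomal proteins, with 58 of 76 above 0 and a median of 0.054 under loess and -0.076 under median centring. Rpl3 was at 0.23 ± 0.067 and Rps27a, saturated in 18 of 40 channels, at 0.15 ± 0.059.

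Chaperone genes had 7 higher and 0 lower of 60, led by Calr, the calcium-binding chaperone calreticulin of the endoplasmic reticulum, at 0.29 ± 0.077 and Hsp90ab1 at 0.16 ± 0.047. With median centring the counts turned to 1 higher and 5 lower, with a median of -0.060. Proteasome genes had 2 higher and 1 lower of 43, with Psmd13 at 0.15 ± 0.055 and Psmg2 at -0.13 ± 0.047, and 1 higher and 5 lower with median centring. In the list of signal recognition, translocation and early secretion 2 of 60 were higher and 5 lower, so that Srp72 went against the larger number, of which Stt3b, an oligosaccharyltransferase subunit, was at -0.13 ± 0.048. Splicing and RNA-binding protein genes had 6 higher and 4 lower of 74, but 4 higher and 13 lower with median centring, with a median of -0.091. Syncrip, a protein of neuronal RNA granules, was above 0 in 9 of 10 rats at 0.18 ± 0.035, and the translational repressor gene Pum2 was at -0.13 ± 0.040. Apoptosis genes had 5 higher and 1 lower of 46, with Casp9 at 0.076 ± 0.029 and its inhibitor Xiap at 0.16 ± 0.061. Of 69 inflammation and interferon genes 1 was higher, the complement gene C4a at 0.11 ± 0.047, and 1 lower, Nfkb2 at -0.057 ± 0.024. The shares higher and lower were 11.7% and 0% for chaperones, 4.65% and 2.33% for the proteasome and 3.33% and 8.33% for early secretion. They were 8.11% and 5.41% for splicing, 10.9% and 2.17% for apoptosis and 1.45% each for inflammation, beside 5.61% and 5.39% of all genes.

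The lists of motors, actin and adhesion held members on both sides. Tubulin, microtubule-associated protein and neurofilament genes had 3 higher and 0 lower of 40: Map2, the centrosomal tubulin gene Tubg1 at 0.093 ± 0.025 and the stathmin gene Stmn4 at 0.31 ± 0.11. With median centring the counts became 2 higher and 3 lower, with a median of -0.071 in place of 0.012. Under loess the median was 0.044 at day 7 and -0.0235 at day 21. Kinesin and dynein genes had 4 higher and 5 lower of 56, with Dync1li1, a dynein light intermediate chain, at 0.21 ± 0.051 and the mitotic kinesin gene Kif15 at -0.24 ± 0.064, and 2 higher and 8 lower with median centring. Actin genes had 7 higher and 5 lower of 75, and 5 higher and 9 lower with median centring. The pair with the smallest p, Limk2 and the formin gene Fmnl1 at -0.19 ± 0.046, were both on the lower side. Adhesion and matrix genes had 10 higher and 5 lower of 87, and 4 higher and 9 lower with median centring. The pair with the smallest p were both on the lower side, the collagen gene Col5a2 at -0.25 ± 0.065, whose 2 other probes gave -0.25 and -0.16, and the integrin gene Itgb6 at -0.13 ± 0.034. The shares higher and lower were 7.5% and 0% for tubulins and their partners and 7.14% and 8.93% for motors. They were 9.33% and 6.67% for actin genes and 11.5% and 5.75% for adhesion, beside 5.61% and 5.39% of all genes.

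Lists of lipid metabolism and of neuropeptides gave the following. Of 41 genes of cholesterol synthesis and uptake 6 were lower (14.6%, against 5.39% of all genes) and 1 was higher. With the scanner software's processed signals 2 were lower. The enzymes Nsdhl at -0.15 ± 0.045 and Mvd at -0.089 ± 0.029 led them, and the list's median was -0.020, with -0.087 to -0.012 over the other settings. By day that median was 0.012 at day 7 and -0.030 at day 21, so its sign was not shared. Ganglioside synthesis had 2 higher (5.13%) and 1 lower (2.56%) of 39, beside 5.61% and 5.39% of all genes. Without day 21 replicate 4 it had 1 higher and 2 lower. In that pathway Ugcg lies upstream at 0.26 ± 0.051, and St3gal5, which makes GM3 on the way to GM1, was at -0.17 ± 0.066. Among neuropeptide and receptor genes 41 of 56 were below 0, but 3 were lower at an unadjusted p under 0.05, a share of 5.36% beside 5.39% of all genes, and 1 was higher, the somatostatin receptor gene Sstr1 at 0.21 ± 0.063.

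The cohorts of each day are separate rats, so the mean ratios of each can be read against the other. The p-values of the days were less separate: they came from the same fit, which pooled a gene's spread over both cohorts. A gene with a small pooled spread was favoured on both days, so the calls of the days were not independent. By limma 3136 genes (9.48%) had an unadjusted p under 0.05 for the day 7 mean, and 1918 (5.8%) for the day 21 mean. Of the 3136, 70.3% had the same sign of the mean at day 21, and of the 1918, 74% had the same sign at day 7, against 57.7% of all 33090 genes. The genes of the day 7 set had a median size of 0.169 at day 7 and a median of 0.0303 at day 21 when turned to their day 7 direction. Both cohorts share the array design, the probes and the dye scheme, and genes are not independent of each other, so no p is given. In 231 of the 33090 genes both days had an unadjusted p under 0.05 with the same sign, and in 37 with opposite signs. Over all 33090 genes such a p at day 21 came with the sign of day 7 in 1419 and the other sign in 499. For day 7 the counts were 2204 and 932. How many genes would be called on both days with nothing shared was not tested. With a symbol these included, besides Srp72, Atp6v1a, Ugcg, Gria1 and Tm9sf2, 3 genes singled out after their values were seen. App, the amyloid precursor protein, gave 0.31, 0.36, 0.46, 0.43 and 0.58 at day 7 and 0.27, 0.66, -0.034, 0.024 and 0.13 at day 21, with a mean of 0.32 ± 0.060. Slc24a2, a sodium-calcium-potassium exchanger, had a mean of 0.50 ± 0.099, with 0.64, 0.45, 0.68, 1.02 and 0.58 at day 7 and 0.51, 1.03, 0.061, -0.0073 and 0.029 at day 21. Stim2, which senses calcium in the endoplasmic reticulum and opens store-operated entry, had 0.29 ± 0.048 with the probe that stands for it and -0.033 with its other probe.

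The difference between the days was tested in the same fit. By limma 0 genes (0%) passed after adjustment, with a smallest adjusted p of 0.506, and 1340 genes, or 4.05%, had an unadjusted p under 0.05, with 770 of them higher and 570 lower at day 21. With the 20 arrays as observations 4 genes (0.0121%) passed, and 1 without the arrays of day 21 replicate 4. The 2 of the 4 with a symbol were Htr7, a serotonin receptor gene, and Olfm3, an olfactomedin gene. Htr7 gave -0.40, -0.81, -0.37, -0.99 and -1.19 at day 7 and -0.33, 0.21, 0.11, 0.034 and 0.16 at day 21, below 0 in every day 7 rat and above 0 in 4 of 5 day 21 rats, but its second probe had a mean over both days of -0.038 against -0.36. Olfm3 was at 0.30 ± 0.16 at day 7 and -0.14 ± 0.14 at day 21 (SD, n = 5 each). Arrays were scanned on 5 days, 3 of which held arrays of both cohorts. Within those 3 scan days the mean of Htr7 was -0.30, -0.94 and -0.99 in day 7 arrays and -0.15, 0.16 and 0.16 in day 21 arrays. Those means rest on 1, 3 and 2 day 7 arrays and on 4, 4 and 2 day 21 arrays. Arrays of the same rat hold the same RNA. Among the layer genes Lhx2 had an unadjusted p of 0.00358 for the difference, with cohort means of -0.47 ± 0.19 at day 7 and -0.0067 ± 0.23 at day 21. Srp72 had 0.0424, and its mean was above 0 in both cohorts.

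**Figure D5:**
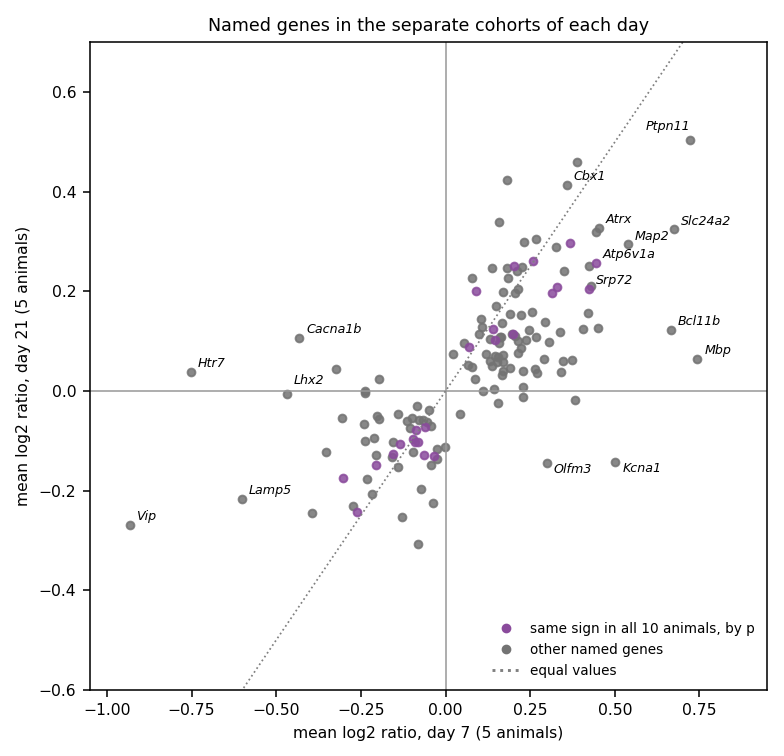
Mean log2 ratio at day 7 (horizontal axis) against day 21 (vertical axis), 5 rats each, for 151 genes chosen for description; purple dots are the genes with 1 sign in all 10 rats, and the dotted line marks equal values. Most of the genes were chosen by their p for the mean of both days, which favours shared signs; Htr7, Olfm3, Kcna1 and Cacna1b are among those with opposite signs.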

How the data were processed

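The arrays are 2-colour Agilent rat arrays scanned and quantified with Feature Extraction 9.1.3.1, per the file headers. The deposited scanner files give an intensity per spot and channel with a local background, and these intensities were the start of the work. A further file of the authors holds normalized log2 ratios for every array; how it was made is not given in the sources used here. It served as an alternative, and 20 further columns of per-array values in it were not used.

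Signals were background-corrected by normexp with an offset of 50 and loess-normalized within each array (limma 3.58.1, R 4.3.3); control spots had weight 0 in the loess, and control and outlier spots were left out afterwards. Each ratio was signed so that sprouting neurons are the numerator. Means were taken over the spots of a probe and then over both dye orientations of a rat, which had a value only where both were measured. Probes well above background on a share of at least 0.5 of the arrays of 1 cell type and day, with values in at least 3 rats per day, were kept: 37343 of 41012. The probe with the highest mean signal stood for a gene. Symbols were matched to RefSeq by accession for 10658 probes, by symbol for 4647 and by synonym for 3885, and 21822 kept the name in the file. The fit had a mean per day, with contrasts for the mean of both days and for their difference, moderated t-statistics and Benjamini-Hochberg adjustment over 33090 genes at 0.05. The fit was also run on simulated data with independent rats, none of them made like day 21 replicate 4. That run does not show what the fit can detect in these data. P-values measure the spread between rats, and the number of rats limits the precision.

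Genes named are, per direction, the 12 with a symbol, 1 sign in all 10 rats and the smallest p, after any that passed; the 2 members with the smallest p of each list; Gap43, Atrx, Igf1, Lingo1 and Bdnf; and genes passing for the difference of days, of which there were 0. All other genes were added after their values were seen. Some list members are not reported here by name. The comparison, the lists and the markers were chosen with earlier results of these data known. Alternatives in background correction, scaling, filters, probe choice, moderation, weights and unit of replication were computed, and some were added after the data were seen.

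Rats of the separate cohorts that carry the same replicate number did not deviate together: the correlations of their deviations from the cohort means were -0.196, -0.088, -0.106, 0.00172 and -0.134, so the numbers were not taken as pairs.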

Additional observations from a re-analysis of the deposited data

Results flagged for a closer look

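Single rats stood apart from the other 4 of their cohort in 20 of 299 groups of 5 examined for the named genes and the array measures, by Dixon's ratio above 0.71; chance gives about 1 in 20. At day 7 they were Zfp799 in replicate 5 (0.9149, against 0.19 to 0.30 in the others), Serpina7 in replicate 2 (-0.1956), Pdgfa in replicate 4 (0.0364, against 0.23 to 0.31), Rps27a in replicate 1 (-0.2085, against 0.29 to 0.44), Xiap in replicate 4 (0.6664, against 0.056 to 0.13), Nsdhl in replicate 5 (-0.3826), Pf4 in replicate 3 (-0.329, against 0.50 to 0.61) and Kcnj3 in replicate 1 (-0.339, against 0.26 to 0.41). At day 21 they were Pdgfa in replicate 2 (-0.1775), Cacna1b in replicate 2 (0.5879, against -0.096 to 0.020), Pum2 in replicate 3 (-0.1806), C4a in replicate 1 (0.2829), Emcn in replicate 5 (-0.2536), Kcnd2 in replicate 3 (0.7487, against -0.072 to 0.15), Kcna1 in replicate 3 (-0.4893), Kcnc1 in replicate 4 (-0.0293, against 0.19 to 0.25), Uqcrh in replicate 3 (0.2123), Chd3 in replicate 2 (-0.0258, against 0.12 to 0.15), Cbx1 in replicate 3 (1.4475, against -0.039 to 0.26) and Rap2a in replicate 3 (0.2547). Day 21 replicate 3 accounted for 6 of the 20.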

How the results depend on the processing

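No gene passed for the mean of both days, or for the difference of the days, under any alternative computed other than the fits over 20 arrays and 1 with an array turned; that covers other background corrections and scalings, the deposited ratios, other filters, probe rules, moderation and weights, an adjusted p under 0.1 and each rat left out (0 to 0). With 20 arrays 500 passed for the mean and 4 for the difference, and 630 and 1 without the arrays of day 21 replicate 4 (added after the data were seen). With the array of day 21 replicate 4 that has sprouting neurons in Cy5 turned, 1 sequence without a symbol passed (log2 0.26, limma adjusted p 0.0444, against 0.3979 as labelled), and with its other array turned 0 did. Genes at an unadjusted p under 0.05 numbered 3641, between 2808 and 4354 with 1 rat left out, and 1360 under the stricter filter, which tested 11499 genes. With a replicate block 0 genes passed for the mean and 0 for the difference and 2763 had an unadjusted p under 0.05; the replicate block changed no call. With the scan day as a random block, which takes day 7 replicate 3 by the scan day of the array with its sprouting neurons in Cy5, 0 passed and 4169 had an unadjusted p under 0.05. With rats weighted by their fit, 1630 genes were higher and 2028 lower at an unadjusted p under 0.05, or 44.6% higher, in place of 1856 and 1785. That setting gave the largest weight, 2.42, to day 21 replicate 4, whose 2 arrays disagree, against 0.618 to 1.29 in the other rats. Of 2801 values of the named genes under the alternatives other than leaving out a rat, 17 had the other sign: Lingo1 at 0.0026 without background subtraction, 7e-04 with the scan day block and 0.0034 over 20 arrays without day 21 replicate 4 and 0.0066 and 0.0075 with either array of that rat turned; Cox6b1 at -0.1234 with the scanner software's processed signals; Or10ag59 at 0.0132, Tet2 at 0.0355, Ndufb5 at -0.0284, Igf1 at -0.0073, Nrxn3 at -0.0132, Cox5a at -0.0284, Sdhb at -0.0162 and Olfm3 at -0.0364 with median centring; Efna4 at -0.0116 with the deposited ratios; Stim2 at -0.0326 under the stricter filter, where another probe stands for it; and Kdm5b at 0.001 with the mean of its probes. Leaving out 1 rat turned the sign of Lingo1 in 6 cases, with values of 0.0028 to 0.01, in a range of -0.0173 to 0.01 over all 10. List medians had the other sign in 34 of 741 cases. The cause of the other reversals was not tested. Signal over background limits the dim probes, such as those of Cxcr3, Or5p6 and Or10ag59.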
